A study of Mus musculus with 6 samples.

Results

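Small leucine-rich proteoglycans, a family of matrix genes, were compared between cultures from female and from male mice that carry the label of aortic endothelial cells. The members were the 10 rows of the deposited count table with the gene names Lum, Dcn, Bgn, Fmod, Omd, Ogn, Aspn, Prelp, Kera and Epyc, out of 54532 genes. The series held 3 female and 3 male RNA-seq libraries made from poly-A RNA of primary cultures, all wild type and untreated, grown in F-12 with bovine serum, antibiotics, heparin and growth factors for endothelium. Strain and age are not labelled, nor whether replicates are different animals or different dishes, and p-values therefore cover the spread between these samples alone, which may be technical.

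Small leucine-rich proteoglycans are secreted proteins built around a curved array of leucine-rich repeats, most of which carry glycosaminoglycan chains. They bind collagen fibrils and set how fibrils grow and pack, and several also hold growth factors or bind cell surface receptors in the matrix. By sequence they fall into classes. Class I here holds Dcn (decorin), Bgn (biglycan) and Aspn (asporin), class II holds Lum (lumican), Fmod (fibromodulin), Prelp, Kera (keratocan) and Omd (osteomodulin), and class III holds Ogn (osteoglycin, or mimecan) and Epyc (epiphycan). In the artery wall they are known mainly as products of fibroblasts and smooth muscle cells.

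The cultures did not carry the defining markers of their label. Of 12 endothelial markers, 11 stayed under 1 CPM (counts scaled by the TMM-adjusted library total) in every library, and Cdh5, Tie1, Cldn5 and Robo4 had 0 counts in all 6. Their summed level was 2.35 to 4.33 CPM in female and 4.21 to 6.60 in male libraries. Fibroblast markers other than the members summed to 6786 to 7414 CPM in female and 7397 to 8389 in male libraries, and of 12 tested 3 rose and 4 fell in female. Smooth muscle markers summed to 120 to 122 CPM in female and 144 to 178 in male libraries. Most of this was Smtn, at 112 ± 2.04 CPM in female and 129 ± 12.6 in male. Myh11 and Cnn1 stayed under 1 CPM in every library. Of the 5 smooth muscle markers tested, 0 rose, Acta2 fell (3.23 ± 0.749 CPM in female against 20.3 ± 6.01 in male, SD, n = 3 each) and 4 did not pass. The log2 fold changes ± SE of these 4 were -1.46 ± 0.80 (Tagln), -0.94 ± 0.37 (Mylk), -0.21 ± 0.11 (Smtn) and 0.10 ± 0.25 (Lmod1). Des, which was not tested, had 24, 4 and 28 counts in female and 0, 4 and 0 in male libraries. The part of such cell type differences in the results below was not tested, and in bulk samples fewer cells of a type and less RNA per cell cannot be told apart. Library totals were 17410996 to 22993574 counts, and Xist and 4 Y-linked genes followed the labelled sex in all libraries. Male replicate 3 was the least like its group, with correlations to male replicates 1 and 2 of 0.974 and 0.982, against 0.992 between those 2.

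The members lie at 4 places, and their coordinates in the deposited table are those of the GENCODE M21 annotation of GRCm38 for all 10. On chromosome 10, Dcn (97479609 to 97518143), Lum (97565128 to 97572703), Kera (97606879 to 97613692) and Epyc (97644068 to 97682454) follow each other on the plus strand within 203 kb, with gaps of 47.0, 34.2 and 30.4 kb. On chromosome 13, Aspn (49544443 to 49567565), Omd (49582462 to 49592822) and Ogn (49608046 to 49624501) lie within 80.1 kb, all inside the span of Cenpp, which runs on the opposite strand. On chromosome 1, Prelp (133910304 to 133921414, minus strand) and Fmod (134037254 to 134048277, plus strand) are 116 kb apart. Bgn is X-linked (73483602 to 73495933). No other annotated gene overlaps the exons of Lum, Dcn, Bgn, Kera, Fmod, Omd or Ogn. Aspn shares 7 exonic bases with Cenpp, and the antisense gene overlapping Prelp and the noncoding gene overlapping Epyc had 0 counts in every library.

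RefSeq promoter windows (GRCm38.p6) matched 8 of the 10 members, with no match for Lum and Dcn. The 250 bases before the start are shown for Bgn and Prelp, which fell in female libraries, and for Ogn, a detected member that was not called, so that they can be read side by side. The start is that of RefSeq, which differs from the coordinates above, so that the Prelp window reaches into its gene as given there. Capitals mark matches, on either strand, to the TATA box TATAAA, the CCAAT box CCAAT, the GC box GGGCGG and the SMAD box CAGAC.
Bgn (chrX:73483351-73483600, plus strand): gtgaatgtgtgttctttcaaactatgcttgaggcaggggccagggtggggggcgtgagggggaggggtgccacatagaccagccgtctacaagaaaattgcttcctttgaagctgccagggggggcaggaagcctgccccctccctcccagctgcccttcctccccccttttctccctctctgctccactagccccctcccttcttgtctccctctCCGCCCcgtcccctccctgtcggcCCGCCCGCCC
Prelp (chr1:133921402-133921651, minus strand): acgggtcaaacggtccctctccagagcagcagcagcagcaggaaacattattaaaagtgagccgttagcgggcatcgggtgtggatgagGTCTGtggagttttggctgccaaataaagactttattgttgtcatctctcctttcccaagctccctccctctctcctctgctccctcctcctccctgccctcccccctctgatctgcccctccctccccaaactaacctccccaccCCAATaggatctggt
Ogn (chr13:49607765-49608014, plus strand): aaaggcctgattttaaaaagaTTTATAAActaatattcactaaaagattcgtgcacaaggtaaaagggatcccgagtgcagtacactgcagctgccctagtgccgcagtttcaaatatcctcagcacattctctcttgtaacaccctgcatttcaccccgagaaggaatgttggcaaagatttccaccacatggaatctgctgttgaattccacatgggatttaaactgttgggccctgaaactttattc
The Bgn window was 64.4% G and C, with 3 GC boxes on the minus strand, of which the last 2 overlap. Prelp (55.6% G and C) held a SMAD box and a CCAAT box. The CCAAT match begins 15 bases before the RefSeq start and crosses the start of the gene as given above. Ogn (42.0%) held 2 overlapping TATA matches far from the start, which begin 229 and 227 bases before it. Over 32851 windows of that length, 32.7% held a GC box, 33.8% a CCAAT box, 42.2% a SMAD box and 12.4% a TATA match. The AP-1 site TGANTCA (6.75% of windows) and the STAT-type element TTCNNNGAA (7.02%) were in none of the 9 member windows. A match describes letters only and shows no binding.

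Lum and Dcn rose in female libraries, by 28.9-fold and 3.59-fold, while Bgn and Prelp fell in female libraries and were 1.93-fold and 4.33-fold higher in male ones. Of the 10 members, 5 passed the filter on low counts, and of these 2 rose (9.68% of all 14932 tested genes were called higher), 2 fell (8.62% were called lower) and Ogn did not pass. The median log2 fold change of these 5 was 0.65, against -0.0087 over all tested genes. That median is the value of Ogn, which was not called. With 2 members called in each direction it does not describe a shift of the family. The other 5, Kera, Fmod, Epyc, Omd and Aspn, stayed under 1 CPM in every library and were not tested.

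**Figure D1:**
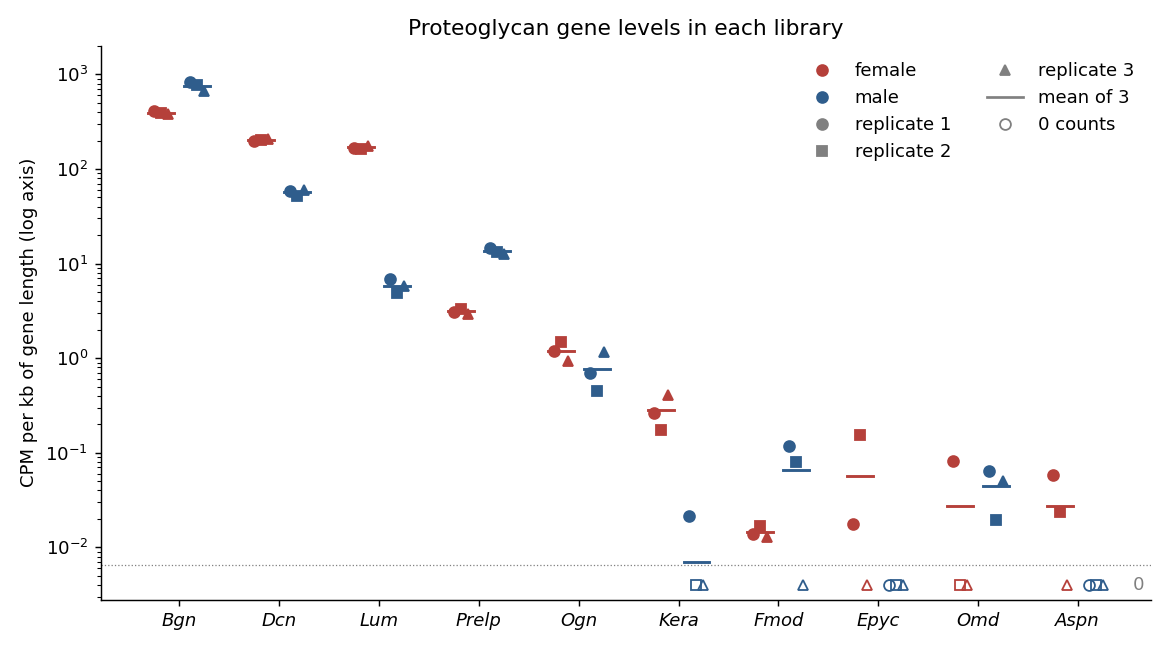
Level of each of the 10 proteoglycan genes in each library, in CPM per kb of gene length on a log axis, with female libraries in red, male in blue, marker shapes for the replicate number, bars for the mean of 3 and open markers on the bottom strip for 0 counts. Bgn, Dcn, Lum, Prelp and Kera show no overlap between the sexes, while Ogn overlaps and the remaining 4 lie near the counting limit. Of all tested genes, 19.2% had all 3 female libraries above all male ones and 16.7% had them below.

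Levels can be set side by side between genes only per length, as CPM per kb of the gene length in the table. In female libraries the order was Bgn (394 ± 13.6 CPM per kb), Dcn (204 ± 5.66), Lum (169 ± 5.19), Prelp (3.13 ± 0.185) and Ogn (1.20 ± 0.279), and each of these neighbours in the order was separated by more than the spread. In male libraries it was Bgn (762 ± 79.4), Dcn (56.9 ± 3.88), Prelp (13.5 ± 1.07), Lum (5.85 ± 1.01) and Ogn (0.773 ± 0.370), so that Lum and Prelp changed places. By CPM per kb Bgn ranked 65 in female and 32 in male libraries among 14932 tested genes. Lum ranked 201 in female and 6709 in male libraries, and Dcn 163 and 792. In female libraries Kera came next, with its lowest library (0.173 CPM per kb) above the highest of Epyc (0.154). Both values are from female replicate 2, where each gene had 7 counts, so this gap rests on gene length alone. The order of the remaining genes was not resolved, since Epyc, Omd and Aspn in female libraries, and Fmod and Omd in male libraries, overlapped.

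The summed level of the 10 members overlapped between the sexes, with 763 to 780 CPM per kb in female and 754 to 912 in male libraries. Male replicate 3 was the lowest of all 6 in this sum. The make-up of the sum did not overlap. Bgn made up 49.7 to 52.5% of it in female and 89.5 to 91.6% in male libraries, Dcn 25.4 to 27.2% and 6.15 to 7.88%, and Lum 21.5 to 22.6% and 0.570 to 0.773%. Prelp contributed 0.384 to 0.436% in female and 1.57 to 1.66% in male libraries. No range of these 4 genes overlapped between the sexes, and male replicate 3 lay with the other male libraries in each. By CPM, such a lack of overlap was seen in 19.2% of all tested genes with female higher and 16.7% with male higher.

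**Figure D2:**
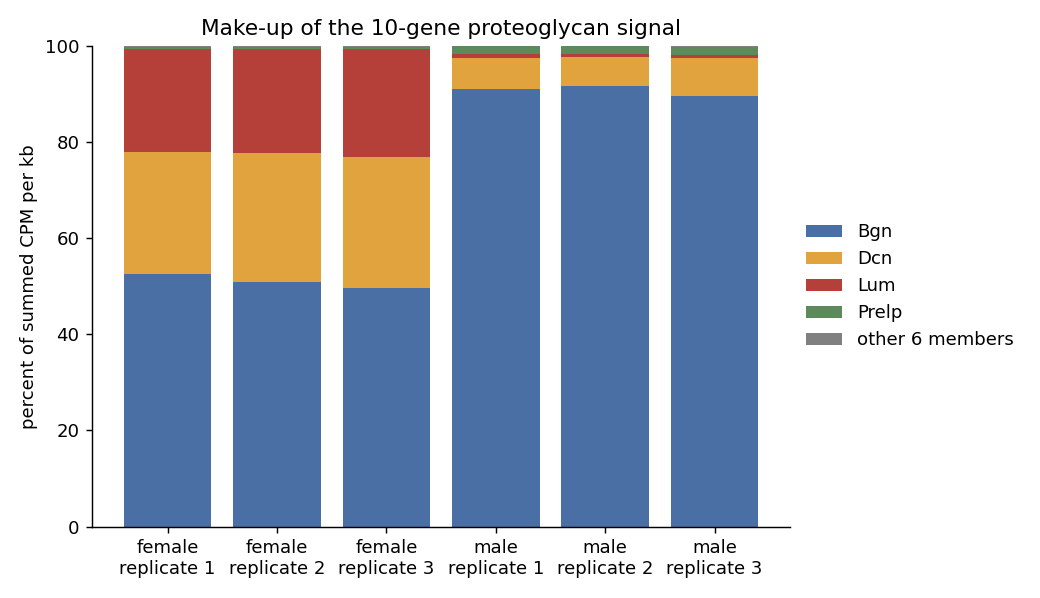
Percent of the summed CPM per kb of the 10 proteoglycan genes that each gene made up, with 1 bar per library. In the 3 female bars Bgn, Dcn and Lum share the signal, at means of 51.1%, 26.5% and 21.9%, while in the 3 male bars Bgn alone makes up 90.8% on average.

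Lum encodes lumican, a class II member with keratan sulfate chains that regulates collagen fibril spacing and keeps the cornea clear. It stood at 410, 403 and 427 CPM in female replicates 1 to 3 and at 16.8, 11.9 and 14.3 CPM in male replicates 1 to 3. The 3 female values lie close together and far above the male ones, of which the highest was male replicate 1. Its log2 fold change, female over male with the SE of the edgeR fit, was 4.85 ± 0.15 (edgeR adjusted p = 1.85e-07), the 60th highest value among the tested genes.

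Dcn encodes decorin, the class I member with a single chondroitin or dermatan sulfate chain, which coats collagen fibrils and binds TGF-beta. Its level was 1158, 1193 and 1225 CPM in the female libraries and 343, 306 and 347 CPM in the male libraries, again without overlap. The log2 fold change was 1.84 ± 0.11 (edgeR adjusted p = 3.21e-06). Lum lies next to Dcn on chromosome 10, yet the genes did not change by the same factor. The ratio of Lum to Dcn counts within a library, which does not depend on how libraries are scaled, was 0.354, 0.338 and 0.349 in female and 0.0491, 0.0389 and 0.0412 in male libraries. On the log2 scale the female mean was higher by 3.02 (two-sided p = 0.1 by exact permutation of the 6 libraries, which is the lowest value 3 against 3 allows, and 0.1 adjusted over the 2 ratios tested).

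Kera encodes keratocan, a keratan sulfate proteoglycan best known from the cornea, and lies beyond Lum in the same row of genes. It had 13, 7 and 22 counts in the female libraries and 1, 0 and 0 in the male libraries. These levels, 0.594, 0.394 and 0.940 CPM in female libraries, were above every male value but too low for the filter. The ratio of summed counts was 40.5 (95% exact interval 6.89 to 1639, counting error only). Without the filter on low counts Kera was called (edgeR adjusted p = 0.0029), as it was by DESeq2 (adjusted p = 0.0054). Leaving out female replicate 2 or any of the male libraries also let it pass the filter. It was called in each of these 4 fits (edgeR adjusted p from 0.00732 to 0.0490). In these fits it passed only through the female libraries, where it is high, so the calls are no separate support.

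Epyc, a proteoglycan of growth plate cartilage at the end of the row, had 1, 7 and 0 counts in female and 0 in all male libraries. Most of these came from female replicate 2. Taking the 8 female counts as exact and allowing up to 3 counts over the male libraries, the fold was 2.57 or more. Without the filter it was not called (edgeR adjusted p = 0.259). Per length, the mean levels in female libraries were lower at each gene along the row, from Dcn (204 CPM per kb) and Lum (169) to Kera (0.282 ± 0.121) and Epyc (0.0572 ± 0.0840). The last step was not resolved in female replicate 2, where Kera and Epyc each had 7 counts. Of 11 other annotated genes that start within 500 kb of the row, 0 passed the filter, so the row has no tested neighbour to set it against.

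Bgn encodes biglycan, the class I relative of decorin with a pair of chondroitin or dermatan sulfate chains, which also acts on Toll-like receptors when released from the matrix. Its level was 2498, 2374 and 2340 CPM in female and 5068, 4758 and 4119 CPM in male libraries. All male values lay above all female ones, with male replicate 3 nearest to them. On the log2 scale Bgn fell by 0.95 ± 0.12 in female (edgeR adjusted p = 0.000393). The ratio of Bgn to Dcn counts was 2.16, 1.99 and 1.91 in female and 14.8, 15.6 and 11.9 in male libraries, so that its log2 mean fell by 2.79 in female (two-sided p = 0.1 by exact permutation, again the lowest value possible, and 0.1 adjusted over the 2 ratios).

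Bgn was the most abundant of the 480 tested X-linked genes other than Xist by mean CPM over all libraries. It took 8.67 to 9.44% of X-linked counts other than Xist in female and 12.7 to 15.3% in male libraries. Of these 480 genes, without Xist, 31 rose, 58 fell and the median log2 fold change was -0.13, and Bgn held the 52nd lowest place. Without Xist and Bgn, X-linked genes still took less of the counts in female (2.42 to 2.51%) than in male libraries (2.71 to 2.76%). Of 17 tested genes starting within 500 kb of Bgn, 2 rose, 2 fell and 13 did not pass. The nearest on either side that were tested, Haus7 (0.25 ± 0.16) and Dusp9 (-0.75 ± 0.44), were not called (edgeR adjusted p = 0.332 and 0.296).

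Prelp encodes a class II protein with a basic amino-terminal region that binds heparan sulfate and links basement membranes to collagen. It had 11.1, 12.0 and 10.7 CPM in female and 53.0, 48.4 and 45.3 CPM in male libraries, without overlap and with little spread. The decrease in female was 4.33-fold, or -2.12 ± 0.13 as log2 (edgeR adjusted p = 3.52e-06). Fmod, its neighbour and the collagen crosslinking regulator fibromodulin, was barely detected, with 1 count in each female library and 8, 6 and 0 counts in male replicates 1, 2 and 3. The male to female ratio of its summed counts was 4.83 (95% exact interval 1.35 to 26.2), and without the filter it was not called (edgeR adjusted p = 0.514). Of 11 tested genes starting within 500 kb of this pair, Btg2, an antiproliferative gene, rose (0.93 ± 0.16, edgeR adjusted p = 0.00297), Chil1, a chitinase-like protein gene, fell, with a mean of 0.0142 CPM in female (a single count) and 2.77 ± 0.328 in male (edgeR adjusted p = 7.98e-05), and 9 did not pass.

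Of the cluster on chromosome 13, Ogn was the member with a testable level. Ogn, which takes part in collagen fibril formation, had 3.06, 3.82 and 2.39 CPM in female and 1.79, 1.15 and 3.01 CPM in male libraries. Male replicate 3 fell within the female range and the other male libraries fell below it. The log2 fold change was 0.65 ± 0.38 (edgeR adjusted p = 0.304). Without male replicate 3 it was 1.07 and called (edgeR adjusted p = 0.0340), and limma-voom with quality weights also called it (adjusted p = 0.0014). Both settings called more genes of the whole table, 2508 higher and 2543 lower without male replicate 3 and 3305 and 3289 by limma-voom. The main fit called 1446 and 1287. Calls gained under these settings, of Ogn or of genes below, are to be read beside those totals.

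Omd, known from bone matrix, had 4, 0 and 0 counts in female and 3, 1 and 2 in male libraries. Aspn, a class I member without glycosaminoglycan chains that binds TGF-beta, had 3, 1 and 0 counts in female and 0 in all male libraries. A difference in either was not detectable at this depth, where 0 counts leave room for up to 3 counts, or 0.128 to 0.171 CPM depending on the library. Ecm2, a related gene 11.7 kb from Aspn, had 2.19, 3.04 and 1.96 CPM in female and 0.968, 0.618 and 0.683 in male libraries. It rose by 1.65 ± 0.38 (edgeR adjusted p = 0.0139), and lost this call when replicate 2 of either sex was left out (adjusted p = 0.0833 for the female and 0.0623 for the male library). Of the 10 tested genes starting within 500 kb of this cluster, 1 rose, 3 fell and 6 did not pass. Cenpp, the centromere protein gene that spans the cluster, had 9 to 51 counts and was not called (0.29 ± 0.56, edgeR adjusted p = 0.782).

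**Figure D3:**
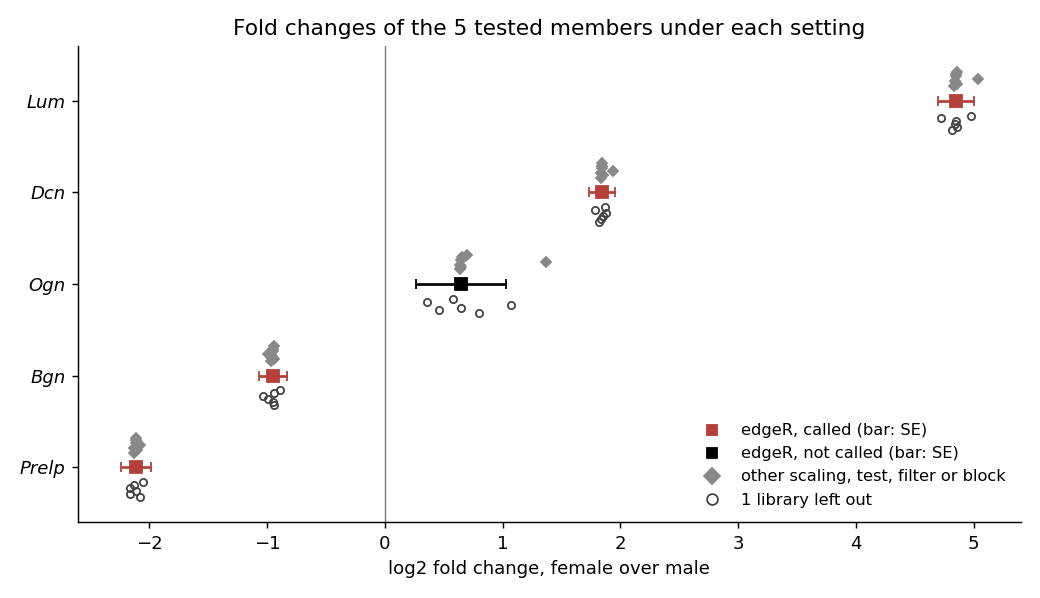
Log2 fold change, female over male, of the 5 tested members, with squares for edgeR with all libraries (bars, SE), grey diamonds for other scalings, tests, filters and the replicate block, and open circles for fits with 1 library left out. Lum, Dcn, Bgn and Prelp keep their side of 0 and their call in every fit, and Ogn ranges from 0.36 to 1.37.

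Further family members outside the 10 genes went both ways. Of 8 such genes 6 were tested, of which Ecm2 rose, Tsku fell and 4 did not pass, and Optc, the neighbour of Prelp, and Chad were not tested. Chad, which encodes chondroadherin, had 11 counts in female and 41 in male libraries, a male to female ratio of 3.86 (95% exact interval 1.95 to 8.33, counting error only). The male counts were 19, 18 and 4 in replicates 1 to 3. Chad passed the filter in 4 of the fits with a library left out, through male replicates 1 and 2 alone. It was called without male replicate 3 (edgeR adjusted p = 0.0317) but not without female replicate 1, 2 or 3 (0.329, 0.323 and 0.127). Tsku, a class IV member that modulates BMP and Wnt signals, stood at 41.9, 40.9 and 34.9 CPM in female and 88.0, 82.6 and 80.2 in male libraries. Its log2 fold change was -1.09 ± 0.11 (edgeR adjusted p = 0.000112). Podn, a class V member, averaged 20.7 ± 2.34 CPM in female against 16.8 ± 0.417 in male and was not called (edgeR adjusted p = 0.175). Podnl1 (-1.43 ± 0.56), Chadl (-0.09 ± 0.66) and Nyx (-0.02 ± 0.63) were not called either (edgeR adjusted p = 0.117, 0.945 and 0.986). Podnl1 was called without female replicate 1 (edgeR adjusted p = 0.0254), without the filter (0.0398) and by limma-voom (0.00703). Chadl shares 1023 exonic bases with L3mbtl2 on the opposite strand, so its counts cannot be told apart from those of that gene where strand was not used.

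Among 14 chains of the collagens that these proteoglycans bind, 3 rose, 5 fell and 6 did not pass, with a median log2 fold change of 0.07. Over all 14932 tested genes 9.68% were called higher and 8.62% lower, which is the background for every list and neighbourhood here. Col12a1 and Col14a1, fibril-associated collagens of which collagen XIV binds decorin, rose in female libraries, as Dcn did. Col12a1 had 105.9, 80.3 and 63.4 CPM in female and 5.81, 6.36 and 2.90 in male libraries (4.03 ± 0.29, edgeR adjusted p = 1.18e-05). Col14a1 had 63.2, 61.7 and 52.1 CPM in female and 5.61, 6.44 and 4.72 in male libraries (3.39 ± 0.16, edgeR adjusted p = 1.05e-06). Neither gene overlapped between the sexes.

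The third chain that rose was Col3a1 of collagen III, the chain with the highest CPM in the list, named here after its values were seen. It had 4976 ± 227 CPM in female and 2014 ± 166 in male (1.30 ± 0.12, edgeR adjusted p = 4.08e-05). Col6a3 of collagen VI, to which biglycan and decorin bind, fell, with 49.6 ± 3.95 CPM in female and 348 ± 63.5 in male (-2.81 ± 0.16, edgeR adjusted p = 2.41e-06). The other listed chains of collagen VI, named here after their values were seen, fell by less. Col6a1 changed by -0.49 ± 0.10 and Col6a2 by -0.43 ± 0.10 (edgeR adjusted p = 0.00698 and 0.0166). Col2a1, the fibrillar collagen of cartilage, had 241, 299 and 344 CPM in male and 0.502, 0.562 and 0.683 in female libraries (edgeR adjusted p = 6.89e-08). Of 18 cartilage, tendon and bone markers, 10 were tested, of which 2 rose (Mkx and Egr1) and 3 fell (Col2a1, Sox9 and Sox5). The highest was Spp1, at 27231 ± 2267 CPM in female and 35996 ± 6910 in male, which was not called (edgeR adjusted p = 0.121). Col9a1, Acan and Ibsp were at 0 in all libraries. The chains of collagen I did not pass (Col1a1 0.25 ± 0.11, edgeR adjusted p = 0.179).

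The counts for genes that build the sugar chains stand beside 18.3% of all tested genes called in either direction. Of 19 tested genes of the linker and of chondroitin and dermatan sulfate synthesis, 2 rose, 3 fell and 14 did not pass (median -0.09). Xylt1, which adds the first xylose of the linker, had 34.4, 29.0 and 31.4 CPM in female and 126, 111 and 67.7 in male libraries, and fell by 1.68 ± 0.21 (edgeR adjusted p = 0.000365). The chain synthase gene Chsy3 fell too, with 0.181 ± 0.0953 CPM in female and 4.62 ± 1.39 in male (edgeR adjusted p = 8.35e-05). Chst15 (1.11 ± 0.11) and Ust (0.70 ± 0.13), sulfotransferases of these chains, rose (edgeR adjusted p = 8.5e-05 and 0.00454).

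Of 9 tested keratan sulfate genes 0 rose, 2 fell and 7 did not pass (median -0.27). The sialyltransferase genes St3gal1 (-0.69 ± 0.15) and St3gal2 (-0.35 ± 0.10) fell (edgeR adjusted p = 0.0105 and 0.0355). The first call was lost without female replicates 2 or 3 or male replicate 2, up to an adjusted p of 0.0649, and the second without any female library or male replicate 2, up to 0.150. St3gal3 (-0.45 ± 0.14) and the sulfotransferase gene Chst2 (-0.34 ± 0.12) did not pass (edgeR adjusted p = 0.06 and 0.0867). St3gal3 was called without male replicate 3 (0.0246), without female replicate 2 (0.0406), without the filter (0.0249), by DESeq2 (0.0366) and by limma-voom (0.0218), and Chst2 by limma-voom (0.00632). Chst4 was at 0 in all libraries.

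Of 10 tested genes for proteases and procollagen processing 4 rose, 5 fell and 1 did not pass (median -0.24). Bmp1, the proteinase that trims probiglycan, osteoglycin and procollagens, had 426, 425 and 404 CPM in female and 698, 742 and 730 in male libraries and fell by 0.79 ± 0.10 (edgeR adjusted p = 0.000385). Its enhancer gene Pcolce fell by 1.09 ± 0.14 (edgeR adjusted p = 0.000386). The matrix metalloproteinase genes Mmp3 and Mmp13 fell by 1.32 ± 0.13 and 2.15 ± 0.24 (edgeR adjusted p = 6.07e-05 and 0.000176). The 4 genes that rose are named after their values were seen. Mmp2, a gelatinase, had 1875 ± 82.6 CPM in female and 1325 ± 7.86 in male (0.50 ± 0.10, edgeR adjusted p = 0.0074), and its membrane-bound activator Mmp14 had 2032 ± 65.6 and 1253 ± 94.9 (0.70 ± 0.11, edgeR adjusted p = 0.00155). The proteoglycan-cleaving proteinase genes Adamts4 and Adamts5 rose by 1.02 ± 0.14 and 0.94 ± 0.16 (edgeR adjusted p = 0.000639 and 0.00296).

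Of 17 tested ligand and receptor genes known to meet decorin, biglycan or asporin, 3 rose, 2 fell and 12 did not pass (median 0.21). Bmp2, a ligand that binds asporin, had 221, 214 and 217 CPM in female and 27.0, 29.4 and 27.8 in male libraries, and rose by 2.95 ± 0.10 (edgeR adjusted p = 2.25e-07). Ctgf (connective tissue growth factor, which binds decorin) fell by 1.18 ± 0.11 (edgeR adjusted p = 6.92e-05). The TGF-beta genes differed in direction. Tgfb3 fell, at 53.2 ± 4.43 CPM in female and 105.5 ± 5.06 in male (edgeR adjusted p = 0.000167), and Tgfb2 rose (0.83 ± 0.19, edgeR adjusted p = 0.0148). The Tgfb2 call was lost when female replicate 2 was left out (edgeR adjusted p = 0.0845). Tlr4, a Toll-like receptor gene named here after its values were seen, rose too (0.89 ± 0.23, edgeR adjusted p = 0.0237). Tlr2 did not pass (0.52 ± 0.16, edgeR adjusted p = 0.0508). Of 8 large proteoglycan and link protein genes, Vcan (versican) and Hapln4 were tested, and neither was called (edgeR adjusted p = 0.448 and 0.123), while limma-voom called both (adjusted p = 0.00523 and 0.0092). Vcan spread widely in male libraries, at 1183, 961 and 561 CPM with male replicate 3 lowest, and was called without that library (edgeR adjusted p = 0.00032).

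**Figure D4:**
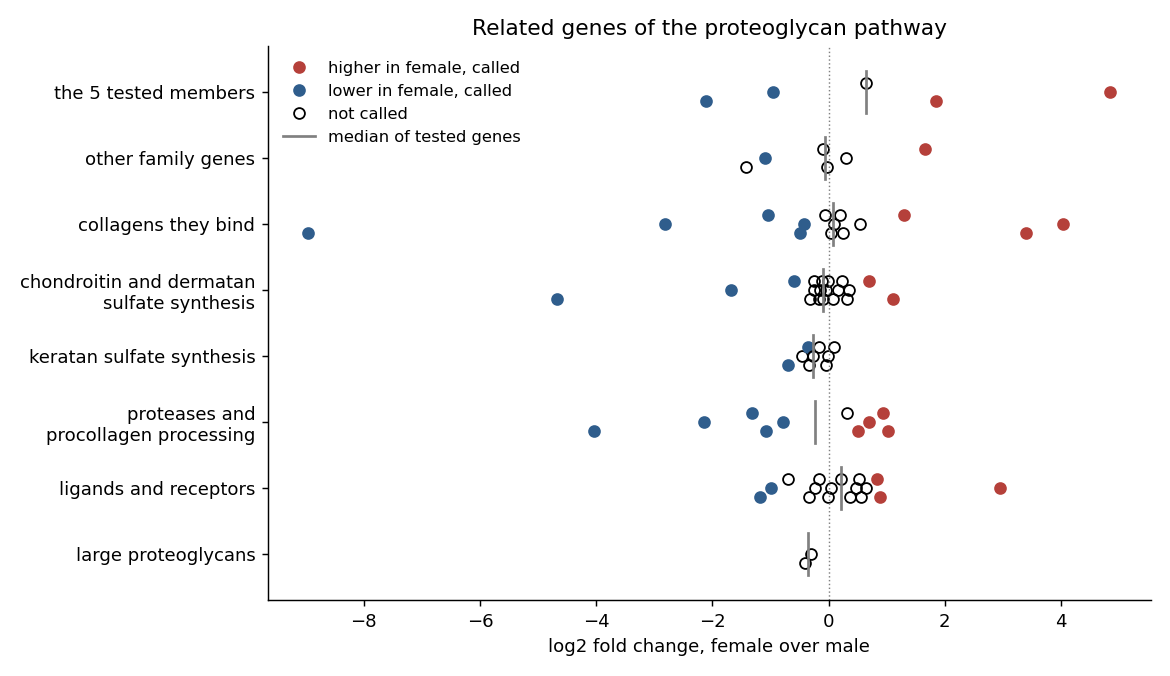
Log2 fold change, female over male, of each tested gene in 8 lists, with red points for genes called higher in female, blue for genes called lower, open points for genes not called and a grey line for the median of the list. The collagens span the widest range of these lists, from Col2a1 at -8.96 to Col12a1 at 4.03, while the genes of keratan sulfate synthesis stay between -0.69 and 0.09.

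The genes with the profiles most like those of the 3 most abundant members were found by the distance between log2 CPM values over the 6 libraries, each gene centred on its mean, among 11924 genes with a mean of at least 50 counts. For Dcn they were Mmd (distance 0.140), Fibin (0.168) and Lpar1 (0.176), a receptor for lysophosphatidic acid. For Bgn they were the X-linked gene Srpx2 (0.133), Epn2 (0.134) and Prx (0.151). For Lum the nearest genes were more distant, Ifi207 (0.704), Angpt2 (0.728) and Adamts15 (0.728). The values were centred but not scaled for the size of a change, so distances cannot be ranked between members. Angpt2 had 50.9, 53.7 and 53.7 CPM in female and 1.40, 1.94 and 2.05 in male libraries. The distance is a description over 6 libraries and says nothing of shared function.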

How the data were processed

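The authors deposited raw whole-number counts of reads for each gene in each library for 3 female and 3 male libraries. HISAT2 2.0.5 and featureCounts 1.5 were used, per the submitters' processing notes, with the genome build and strand setting not given in the sources used here. The deposited table also gave the gene length in bases, which was used as deposited for levels per kb. Of its gene identifiers 99.8% were found in GENCODE M21, 98.3% of them with the same coordinates.

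All genes were fitted together with edgeR 4.0.16 in R 4.3.3 (quasi-likelihood F test, robust, TMM, filterByExpr with a minimum count of 10), which left 14932 genes. A gene was called at a Benjamini-Hochberg adjusted p under 0.05. The SE is the log2 fold change divided by the root of F. Ratios of counts used a pseudocount of 0.5. Of 6 pairs considered, 2 had a mean of at least 10 counts for both genes. Libraries of a sex differed by more than sampling noise (chi-square per degree of freedom 7.43 to 70.8). Intervals and floors cover counting error only. The fit was tested on simulated counts.

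Members and lists were chosen with earlier results of these data known. Named genes were all members, 8 further family genes, up to 4 genes with the smallest p per list, the nearest tested neighbours and the 3 most alike profiles. The alternatives tried were upper quartile and RLE scaling, limma-voom (limma 3.58.1), DESeq2 1.42.0, other filters, a replicate block, each library left out and an adjusted p under 0.01.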

Additional observations from a re-analysis of the deposited data

How the results depend on the processing

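Lum and Dcn were called higher and Bgn and Prelp lower in female under every scaling, test, filter and left-out library tried, the latter with edgeR adjusted p up to 1.45e-05, 9.93e-05, 0.00619 and 0.000117. Leaving out each library gave 2 to 4 members higher, with Kera and Ogn added without male replicate 3, and 2 lower. Genes called higher and lower in female numbered 3305 and 3289 with limma-voom, 900 and 835 at an adjusted p under 0.01, and 967 to 2508 and 903 to 2543 with a library left out, with both maxima coming from the fit that omits male replicate 3; the cause was not tested. With the replicate block 1619 and 1449 genes were called, with the same 4 members. The block changed 1 call among the 63 genes followed through the settings, that of St3gal3 (called, edgeR adjusted p = 0.0477). Deviations of same-numbered libraries correlated at 0.262, -0.0324 and 0.180, so the numbers were not taken to pair samples. The ratio differences ranged from 2.95 to 3.11 (Lum to Dcn) and from -2.91 to -2.72 (Bgn to Dcn) with a library left out. Among genes that were never called, the log2 fold change changed sign with a library left out for Chadl (-0.55 to 0.42), Nyx (-0.61 to 0.34), Tes3-ps (-0.59 to 0.23), Cenpp (-0.45 to 0.63, and -0.57 with limma-voom) and Snrpe (-0.38 to 0.24, and 0.25 with limma-voom), as it did with limma-voom for F8a (0.015). For Zc3h11a it ranged from -0.66 to 0.064, and this gene was called without male replicate 3 (adjusted p = 0.000965) and by limma-voom (0.0367). Without male replicate 3 the neighbouring genes Nol8, Tmem183a, Cyb5r1 and Zfp275 were also called (adjusted p = 0.0177, 0.0206, 0.00291 and 0.00123). Fmod, Omd, Aspn and Epyc had too few counts for the filter and were not called without it. The interval for Fmod covers counting error only. The lower bound for Epyc covers that of the male counts alone. Neither covers the spread between libraries.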
